A study of Mus musculus with 32 samples.

Results

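Spleens of wildtype nuclear transfer clones were hybridised on 2-colour arrays together with pooled spleen RNA of conventionally bred wildtype mice. The comparison comprised 4 cloned mice with 2 dye-swapped arrays each, chosen by the sample titles: 8 of the 32 arrays and 4 of the 8 cloned mice in the study. All of these animals, clones and pool alike, were male 129/SvJ mice aged 18 to 19 weeks. The labels give both the clones and the pool as wildtype. The rest of the study made the same comparison in liver, and for clones of Dll1 heterozygous mice against a pool of conventional Dll1 heterozygotes. The protocol describes each reference as a pool of 6 control animals while the labels list 4 mice for it, and the pool of the wildtype arrays was 1 sample, so the spread between conventional mice was not measured. The labels do not say from which donor cells the clones were made.

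In nuclear transfer the nucleus of a body cell is placed in an egg whose own chromosomes were removed, and the animal that develops shares the donor's genome. The mouse spleen holds lymphoid follicles of B and T cells (white pulp) within a red pulp of macrophages, blood and dividing red cell precursors. Transcripts of DNA replication and of red cell maturation in adult mouse spleen therefore come largely from dividing precursors and activated lymphocytes, and genes of antigen presentation from B cells, dendritic cells and macrophages. A ratio on bulk tissue cannot tell fewer cells of a type apart from less RNA per cell, and it gives no level against which the labelled tissue could be checked.

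Each deposited value was a log2 ratio for 1 array, in which 0 means equal signal from clone and pool; values are given as deposited, and a gene's value for a mouse is the mean of its 2 arrays. A positive value is likely clone over pool. That direction was taken from the order in which the titles name both channels and from reading the arrays with the clone in Cy3 as already turned, and the base of the logarithm was itself read from the values. Means over the arrays of each orientation correlated at -0.427 across 16468 features (features share arrays and are not independent), and the 2 arrays of a mouse at -0.218 to -0.141. Values of both orientations are therefore given apart below, and signs would differ if the Cy3 arrays had still to be turned. Gene names rest on a further reading of the data: row n of the table was named by the array's probe n - 11, an offset found from the values. Of 20794 rows, 12760 were named in this way. Where a tested gene had more than 1 row (2227 genes), all rows lay on one side of 0 for only 1048 (47.1%). Agreement between rows of a gene, given below for single genes, is to be read beside that share.

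No feature passed an adjusted p of 0.05 in the comparison of the 4 clones with the pool (limma, Benjamini-Hochberg; 0 of 16468, or 0% of features, with a smallest adjusted p of 0.537). Without adjustment 1039 features (6.31%) had a p under 0.05, of which 539 (3.27%) were higher and 500 (3.04%) lower in the clones. The median standard deviation between the 4 mice was 0.264, and 1642 features (9.97%) were above 0 and 1235 (7.5%) below 0 in every measured mouse. On all 8 arrays, 97 of 15103 features (0.642%) lay above 0 and 90 (0.596%) below it. Single genes are therefore given below as values that missed the threshold, with the spread over mice. When the 8 arrays were fitted singly, with a term for the dye and each mouse as a random block, 17 of 16468 features (0.103%) passed (8 higher and 9 lower; adjusted p 0.0354 to 0.0476), among them Lyz2, Ms4a1, Cd28, Coch and Cpa1 above 0 and Rrm2, Pcna, Dek, Car2, Prdx2 and Uck1 below it. The 2 arrays of a mouse correlated at only 0.0469 in that fit, which then treats them almost as separate samples.

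The 15 named genes on each side of 0 with the smallest p and the same sign in every measured mouse were of mixed kinds. Of the 15 below, Rrm2 and Pcna belong to DNA replication and Car2 and Prdx2 to red cells. Lyz2, the lysozyme of macrophages and neutrophils, lay at 0.79, 0.74, 0.79 and 0.70 in the 4 clones. Ms4a1, which encodes the B cell antigen CD20, lay at 0.76, 0.59, 0.81 and 0.66. Cd28, the costimulatory receptor of T cells, lay at 0.59, 0.57, 0.56 and 0.67. These were above 0 on all 8 arrays. Close values between the clones are favoured by the rule that chose these genes. With the clone in Cy5 Lyz2, Ms4a1 and Cd28 averaged 0.96, 1.03 and 0.86, and with it in Cy3 0.55, 0.38 and 0.33. Below the pool, the DNA-binding chromatin protein gene Dek lay at -0.57, -0.86, -0.87 and -1.05. Prps1, which makes the phosphoribosyl donor of nucleotide synthesis, lay at -0.67, -1.02, -0.76 and -0.56. Uck1, a uridine-cytidine kinase, lay at -0.59, -0.89, -0.69 and -0.75. All 3 were below 0 on all 8 arrays.

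Genes of DNA replication lay below the pool as a group. Of 36 members tested, 31 had a mean below 0, against 46.6% of all features. Of the same members, 21 (58.3%) were below 0 in every measured mouse, against 7.5% of all features, and 15 (41.7%) had an unadjusted p under 0.05 on the lower side, against 3.04% of all features. None had one on the higher side, and none passed the adjusted threshold. The median over members was -0.33, beside 0.01 over all features. It was -0.23, -0.32, -0.38 and -0.22 in the 4 mice, and -0.20 when mouse 3 was left out. Of 33 members measured on all 8 arrays, 8 (Pcna, Rrm2, Cdc6, Top2a, Rpa1, Fen1, Orc6 and Prim1) lay below 0 on each of them, against 0.596% of all features so measured.

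**Figure D1:**
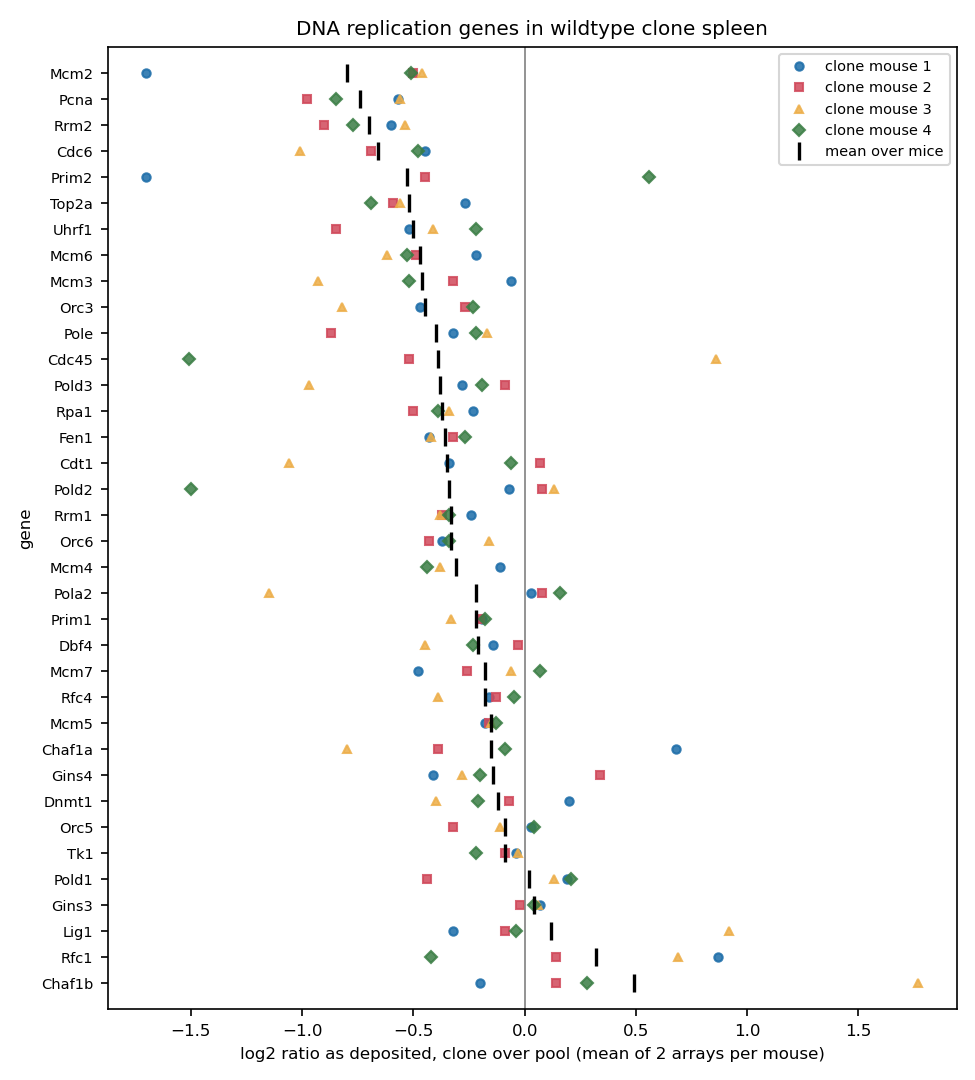
Log2 ratio as deposited (clone over pool, mean of 2 arrays) of each of the 36 DNA replication genes tested, by gene on the vertical axis; coloured symbols are the 4 cloned mice and black bars the mean over mice. Most symbols lie left of 0, with Pcna and Rrm2 below 0 in every mouse and wide scatter for Mcm2, Prim2, Cdc45 and Chaf1b.

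The genes that license origins were among these. Cdc6, which loads the MCM helicase on origins, lay at -0.45, -0.69, -1.01 and -0.48 (mean -0.66 ± 0.26 SD, n = 4), and both of its rows were below 0 (-0.53 and -0.79). Mcm6, a subunit of that helicase, lay at -0.22, -0.49, -0.62 and -0.53. All 6 helicase subunits had a mean below 0, from -0.80 for Mcm2 to -0.15 for Mcm5, but several rested mostly on 1 orientation. With the clone in Cy5 and in Cy3, Mcm2 averaged -0.26 and -1.33, Mcm3 -0.96 and 0.05, and Mcm4 -0.20 and -0.42. Mcm5 averaged -0.02 and -0.28 in these orientations, Mcm6 -0.57 and -0.36, and Mcm7 -0.37 and 0.01. The mean of Mcm2 rested largely on mouse 1, with -1.70 against -0.50, -0.46 and -0.51 in the others. Orc3 and Orc6, subunits of the origin recognition complex, had means of -0.45 and -0.33, while that of Orc5 was -0.09.

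At the fork, Pcna, the sliding clamp of the DNA polymerases, lay at -0.57, -0.98, -0.56 and -0.85 (mean -0.74 ± 0.21 SD, n = 4), with its rows at -0.77 and -0.71. Rpa1, which coats single-stranded DNA, lay at -0.23, -0.50, -0.34 and -0.39. Fen1, the flap endonuclease of lagging-strand synthesis, averaged -0.36, but its rows disagreed at -0.76 and 0.03. The polymerase and ligase genes were less uniform: Prim1 lay at -0.22 and Pole at -0.40, and Pold1 and Lig1 at 0.02 and 0.12. The orientations of Pole were opposite, at -1.46 with the clone in Cy5 and 0.67 with it in Cy3. Rfc1 and Rfc4 averaged 0.32 and -0.18. Top2a, the topoisomerase that separates daughter strands, lay at -0.27, -0.59, -0.56 and -0.69.

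In nucleotide supply, both subunits of ribonucleotide reductase lay below the pool in every mouse. Rrm2, its cell cycle-regulated subunit, lay at -0.60, -0.90, -0.54 and -0.77 (mean -0.70 ± 0.16 SD, n = 4), with its rows at -0.69 and -0.72. Rrm1, the larger and more stable subunit, lay at -0.24, -0.37, -0.38 and -0.34. Tk1, a thymidine kinase, lay closer to 0 at a mean of -0.09. Of the genes that copy chromatin behind the fork, Uhrf1, which guides maintenance DNA methylation, lay at -0.52, -0.85, -0.41 and -0.22, whereas its partner Dnmt1 averaged -0.12 with mouse 1 at 0.20. Chaf1b, a subunit of the histone chaperone CAF-1, had the highest mean of the list (0.49), set by 1.77 in mouse 3.

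Promoters of 4 of these genes are shown because members of the list lay below the pool together. The genes chosen were below 0 in all 4 mice with an unadjusted p under 0.01 and held one of the searched motifs. Pcna, Rpa1 and Fen1 also met the limits on mice and p, but no searched motif was found for them, so they are not shown. The sequences are the 250 bases before the RefSeq start (GRCm38.p6), 5′ to 3′ on the gene's strand, with matches in capitals: Rrm2 at chr12:24708004-24708253 (+), Cdc6 at chr11:98907901-98908150 (+), Top2a at chr11:99024190-99024439 (-) and Mcm6 at chr1:128359706-128359955 (-). The motifs were E2F-type letters (TTTGGCGC, TTTCCCGC, TTTCGCGC or TTTGCCGC) and CCAAT-box letters (CCAATCAG, CCAATGAG, CCAATCGG or CCAATGGG), each on both strands.
Rrm2: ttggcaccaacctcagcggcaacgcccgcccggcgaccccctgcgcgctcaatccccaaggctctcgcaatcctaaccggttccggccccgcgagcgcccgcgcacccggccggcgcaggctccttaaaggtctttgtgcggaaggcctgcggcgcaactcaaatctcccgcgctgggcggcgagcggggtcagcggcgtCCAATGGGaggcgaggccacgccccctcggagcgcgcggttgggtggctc
Cdc6: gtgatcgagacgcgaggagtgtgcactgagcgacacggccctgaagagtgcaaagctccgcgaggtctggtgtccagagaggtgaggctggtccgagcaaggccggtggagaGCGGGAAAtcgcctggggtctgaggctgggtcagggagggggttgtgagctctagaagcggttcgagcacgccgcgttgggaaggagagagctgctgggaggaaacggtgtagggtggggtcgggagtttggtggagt
Top2a: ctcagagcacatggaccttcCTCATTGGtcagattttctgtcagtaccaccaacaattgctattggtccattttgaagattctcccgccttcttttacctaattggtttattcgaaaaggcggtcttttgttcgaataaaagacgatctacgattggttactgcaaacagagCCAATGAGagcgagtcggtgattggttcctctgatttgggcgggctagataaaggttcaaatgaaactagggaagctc
Mcm6: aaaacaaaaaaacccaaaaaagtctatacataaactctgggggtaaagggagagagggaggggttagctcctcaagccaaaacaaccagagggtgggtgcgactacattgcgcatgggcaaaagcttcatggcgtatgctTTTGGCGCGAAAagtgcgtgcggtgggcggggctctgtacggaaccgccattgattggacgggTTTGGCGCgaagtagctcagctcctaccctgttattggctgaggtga
E2F factors bind promoters of many S phase genes, and the factor NF-Y binds CCAAT boxes. Cdc6 held 1 E2F-type match on the opposite strand, and Mcm6 held 3, of which a pair on opposite strands overlapped. Rrm2 held 1 and Top2a 2 CCAAT-box matches. Of the 36 replication genes 32 had a promoter in the table, and 6 of these (18.8%) held an E2F-type match, against 1.91% of all 27025 genes. This last share, like those of all genes given for motifs below, also counts genes not on the array or not tested. The 6 were Cdc6, Mcm6, Orc3, Mcm7, Mcm5 and Gins3, and their means ran from -0.66 for Cdc6 to 0.04 for Gins3. The share of the replication genes counts members with a promoter whatever their ratio, and a link between motifs and ratios was not tested. A match describes letters in this window and is not a measured binding site.

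Genes of mitosis lay below the pool to a lesser degree. Of 33 tested, 25 had a mean below 0 and 14 (42.4%) were below 0 in every measured mouse, against 46.6% and 7.5% of all features. On the lower side 9 (27.3%) had an unadjusted p under 0.05, against 3.04% of all features, and none had one on the higher side. Their median was -0.17, with -0.20, -0.20, -0.12 and -0.21 in the 4 mice, and -0.09 when mouse 4 was left out. Ccna2, the cyclin of S phase and mitotic entry, lay at -0.47, -0.52, -0.41 and -0.62, below 0 on all 8 arrays and in both of its rows (-0.62 and -0.39). Nusap1, a spindle protein gene, lay at -0.29, -0.50, -0.48 and -0.20, and the condensin subunit Smc4 at -0.21, -0.27, -0.50 and -0.38. The kinase gene Aurkb was measured in 3 mice, at -0.64, -0.76 and -0.76, but 2 of its 6 arrays were above 0. Other core genes of mitosis lay near 0: Plk1 averaged 0.03 and Cdk1 0.06, each with mice on both sides. CCAAT-box letters were found in 13 of 25 mitosis promoters (52%), against 8.07% of all genes and 18.8% of the replication promoters.

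Red cell genes made the other low group. Of 29 tested, 24 had a mean below 0 and 17 (58.6%) were below 0 in every mouse, against 46.6% and 7.5% of all features. On the lower side 15 (51.7%) had an unadjusted p under 0.05, against 3.04% of all features, and none had one on the higher side. The median was -0.31, with -0.27, -0.45, -0.36 and -0.28 in the mice. On all 8 arrays 10 of the 29 lay below 0, against 0.596% of all features measured on all of them. They spanned several steps of red cell maturation. Car2, a carbonic anhydrase, lay at -0.79, -1.45, -0.88 and -0.98. Slc4a1, the anion exchanger band 3 of the red cell membrane, lay at -0.46, -1.07, -0.50 and -1.03. Prdx2, an abundant antioxidant enzyme of red cells, lay at -0.75, -1.33, -0.67 and -1.03. In each of these mouse 2 was the lowest. Klf1, a transcription factor of late red cell precursors, lay at -1.11, -0.93, -0.54 and -0.42, and the haem synthesis enzyme Alad at -0.36, -0.57, -0.36 and -0.38. Dmtn, which encodes a membrane skeleton protein, had the lowest mean of the list (-1.19 ± 0.57 SD, n = 4), with mouse 3 at -2.01 and the others between -1.18 and -0.72. Gata1, a master regulator of the lineage, was among the 5 members above 0, at 0.23, 0.20, -0.01 and 0.10. The letters CCACACCC, of the type that KLF factors bind, were in none of the 22 red cell promoters in the table and in 3.19% of all genes. No other letters of this type were searched, and at that share 22 promoters would often hold none.

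Haemoglobin differed between the clones. Hba-a1, an adult alpha globin gene measured by 6 rows, lay at -0.44, -0.71, -0.03 and -0.31, with mouse 3 close to the pool. Its level also depended on the orientation: with the clone in Cy5 it was -0.10, -0.50, 0.13 and -0.05, and with the clone in Cy3 it was -0.78, -0.91, -0.19 and -0.58. A further 41 rows of the table, 22 of them under names of other genes, stayed within 0.25 (root mean square) of Hba-a1 over the 4 Dll1 clone spleens, where they were chosen. In the wildtype clone spleens, which were not used in that choice, 39 of the 41 stayed within the same distance, against 242 of 17940 other rows (1.35%). Their median was -0.36, -0.65, -0.01 and -0.31 in the 4 mice. The named rows that did so include Tap1, H3f3a, Rpl11 and Smarcb1. Values under these names follow the globin pattern, and why they do was not tested. The 2 rows that did not were Litaf and 1 of the 3 rows of Car2, which lay at -0.91, -1.66, -0.99 and -1.13. With all rows chosen in this way and those of Hba-a1 left out, the median of the red cell list was -0.31. Only 7 rows of that list were removed and 28 of its 29 genes stayed, so its median could hardly change. Whether the list follows the globin pattern was not tested.

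**Figure D2:**
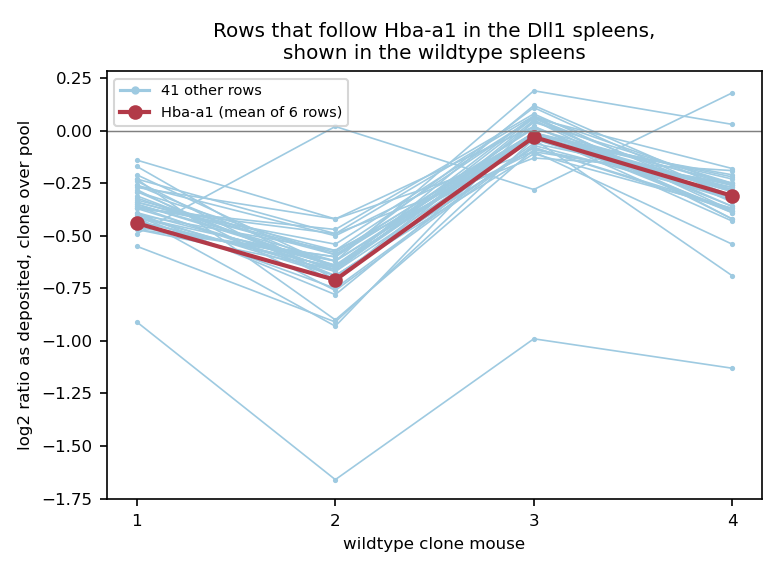
Log2 ratio as deposited in each wildtype clone spleen (horizontal axis, 4 mice) of Hba-a1, the mean of 6 rows (thick red line), and of the 41 other rows that followed it in the Dll1 spleens (thin blue lines, 1 per row). Nearly all lines dip in mouse 2 and return to about 0 in mouse 3.

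Antigen presentation through MHC class II lay above the pool. Of 11 members tested 10 had a mean above 0, against 53.4% of all features, 5 (45.5%) were above 0 in every mouse, against 9.97% of all features, and 4 (36.4%) had an unadjusted p under 0.05 on the higher side, against 3.27%. The median was 0.19, with 0.33, 0.07, 0.27 and 0.26 in the mice. The highest means were those of Ifi30, Cd74 and Ctss. Lgmn, H2-DMa, H2-DMb1 and H2-Oa, which also act in this pathway, averaged 0.03, 0.17, 0.21 and -0.06. Ifi30, a thiol reductase of the antigen-processing compartment, lay at 0.62, 0.54, 0.64 and 0.51. Cd74, the invariant chain, lay at 0.52, 0.57, 0.48 and 0.49, with its 3 rows at 0.42, 0.56 and 0.57. Ctss, the cathepsin that trims the invariant chain, lay at 0.45, 0.63, 0.50 and 0.36. All 3 were above 0 on all 8 arrays. The class II chains themselves were less even: H2-Eb1 lay at 0.84, 0.04, 0.18 and 0.74, and H2-Ab1 at 0.33, -0.01, 0.43 and 0.00. The class II regulators Rfx5 and Rfxank averaged 0.17 and 0.01.

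MHC class I genes had a median of 0.09 over 9 members (0.19 without mouse 3), 4 of them (44.4%) above 0 in every mouse, against 9.97% of all features. B2m, the light chain of class I, lay at 0.68, 0.42, 0.32 and 0.39, and H2-Q10 at 0.77, 0.47, 0.13 and 0.47. Tap1, the peptide transporter subunit, averaged -0.30, in the row named above as following Hba-a1.

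Among B cell genes, 18 of 20 had a mean above 0 and 7 (35%) were above 0 in every mouse, against 53.4% and 9.97% of all features. The median was 0.16 (0.22, 0.16, 0.27 and 0.14 by mouse). Besides Ms4a1, the signalling adaptor Blnk lay at 0.44, 0.17, 0.29 and 0.41. Tnfrsf13c, the receptor for the survival factor BAFF, lay at 0.49, 0.30, 0.32 and 0.12. Both were above 0 on all 8 arrays. The Fc receptor-like gene Fcrla averaged 0.37, but its rows disagreed at 0.74 and 0.00. Cd24a lay opposite to the rest of the list at -0.56, -0.92, -0.52 and -0.96; it marks immature B cells and is also carried by red cell precursors. All 7 marginal zone B cell genes had a mean of 0 or above, where 53.4% of all features were above 0. Their median was 0.20, from 0.36 with the clone in Cy5 and 0.04 with it in Cy3. S1pr3, Cd9 and S1pr1 averaged 0.00, 0.06 and 0.07. The list also held Plac8 at 0.51, 0.59, 0.60 and 0.43 and Notch2, the receptor this lineage needs, at 0.44, 0.20, 0.29 and 0.29. Notch2 averaged 0.57 in Cy5 and 0.04 in Cy3. Plasma cell genes had a median of 0.12 over 9 members, with 1 (11.1%) above 0 in every mouse, close to the 9.97% of all features.

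T cell genes were nearer to all features, with a median of 0.10 over 21 members and 4 (19%) above 0 in every mouse, against 9.97% of all features. Cd28 led them, followed by Cd3g, a chain of the T cell receptor complex, at 0.20, 0.33, 0.34 and 0.43. Thy1 averaged -0.60 with rows at -1.11 and -0.10 and 1 mouse at -1.61. The 6 genes of natural killer and cytotoxic cells differed between mice more than from the pool, with medians of 0.52, 0.19, -0.38 and 0.01 by mouse. Their median over members was 0.20, and -0.14 when mouse 1 was left out.

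Of 31 macrophage and monocyte genes, 24 had a mean above 0 and 7 (22.6%) were above 0 in every mouse, against 53.4% and 9.97% of all features. On the higher side 6 (19.4%) had an unadjusted p under 0.05, against 3.27% of all features. The median was 0.06 (0.03 without mouse 3). Beside Lyz2, Ifi30 and Ctss, the members with such a p were Psap, a lysosomal sphingolipid activator (0.36, 0.29, 0.29 and 0.19), the oxidase subunit Cybb (0.31, 0.28, 0.48 and 0.04) and the lipoprotein gene Apoe (0.28, 0.16, 0.18 and 0.29). The neutrophil list, which also holds Lyz2, had a median of 0.04. In it Mpo, the myeloperoxidase of neutrophil granules, lay at 0.21, 0.22, 0.24 and 0.15, and S100a8, a granulocyte calcium-binding protein gene, at 0.04, -0.49, -0.10 and -0.47. Dendritic cell genes had a median of 0.06 over 13 members.

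Stromal and vessel genes had a median of 0.07, with 9 of 34 (26.5%) above 0 in every mouse, against 9.97% of all features. Coch, which encodes cochlin, a secreted protein of follicular dendritic cells, lay at 0.77, 0.74, 0.66 and 0.64 and above 0 on all 8 arrays. Sparc, a matrix protein gene with 3 rows at 0.46, 0.18 and 0.28, lay at 0.28, 0.15, 0.42 and 0.36. Pecam1, an endothelial adhesion molecule, lay at 0.26, 0.50, 0.20 and 0.23. Of the tissues next to the spleen, pancreas genes had a median of 0.07 over 18 members and mouse medians from -0.10 to 0.29; without mouse 3 the median was -0.00. Cpa1, a pancreatic carboxypeptidase, stood apart in that list at 0.73, 0.60, 0.86 and 0.75, above 0 on all 8 arrays. The means of the list's other digestive enzyme genes ran from -0.15 for the elastase gene Cela3b to 0.43 for the chymotrypsinogen gene Ctrb1, whose mice ran from -0.54 to 2.43. Adipocyte, hepatocyte and muscle lists had medians of 0.04, 0.07 and -0.04. Adipoq, the fat cell hormone adiponectin, lay at 0.75, 0.75 and 0.94 in the 3 mice measured, with 1 of 6 arrays below 0.

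**Figure D3:**
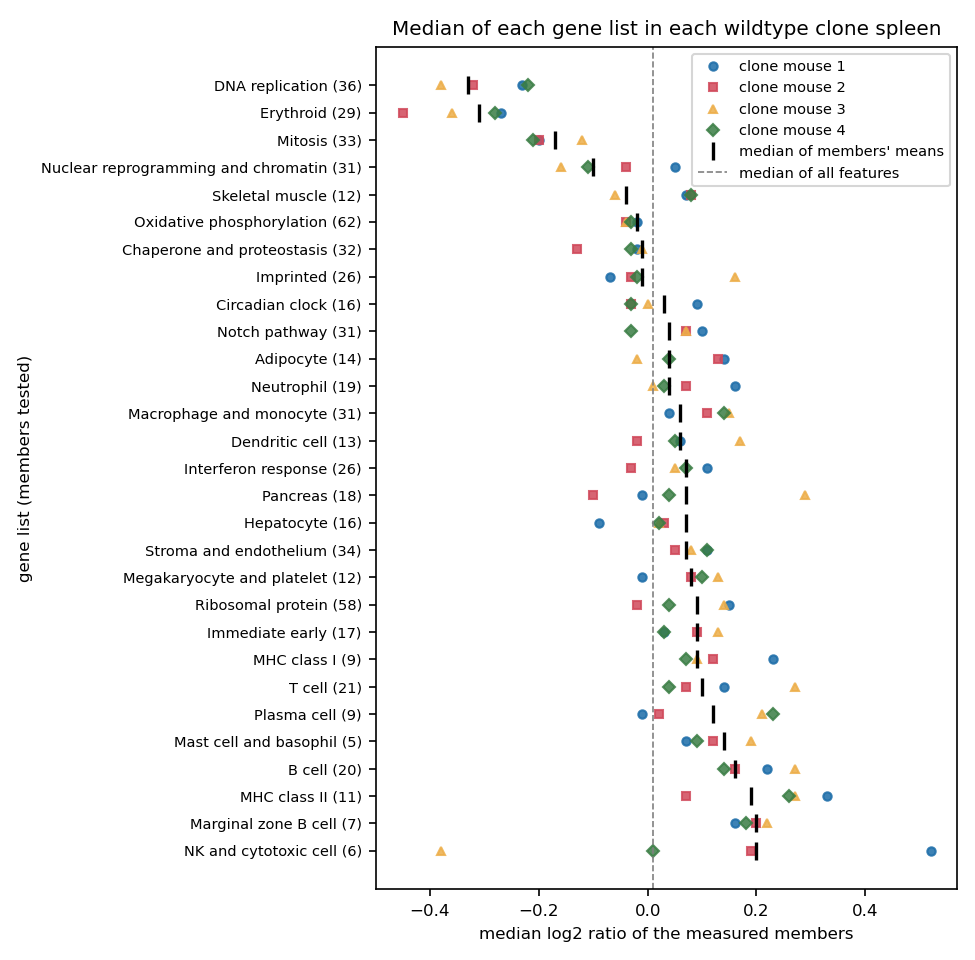
Median log2 ratio of each gene list (vertical axis, with the number of members tested) in each of the 4 cloned mice (coloured symbols), the median of the members' means (black bars) and the median of all features (dashed line). The DNA replication, red cell and mitosis lists lie below 0 in all 4 mice, and the MHC class II, B cell and marginal zone lists above 0 in all 4.

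Chromatin genes, of interest after nuclear transfer, had a median of -0.10 over 31 members, and 0.05, -0.04, -0.16 and -0.11 by mouse. Of these genes 6 (19.4%) were below 0 in every mouse, against 7.5% of all features. The median was -0.05 without mouse 3, 0.02 with the clone in Cy5 and -0.20 with it in Cy3. The low members were Dek, Uhrf1, which is also in the DNA replication list, and Ezh2, the methyltransferase of Polycomb complex PRC2. Ezh2 lay at -0.22, -0.30, -0.89 and -0.87, and averaged -0.12 with the clone in Cy5 and -1.03 with it in Cy3. H3f3a, which encodes histone H3.3, averaged -0.39 in a row that follows Hba-a1. Imprinted genes, whose marks can be disturbed in clones, were centred at -0.01 over 26 members, with 13 above and 13 below 0. Slc38a4, an amino acid transporter gene, was the lowest of them at -1.67, -1.26, -0.79 and -0.25. Dcn, a matrix proteoglycan gene, was the highest at -0.07, 0.36, 1.19 and 0.76. In neither did the clones lie close together.

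The Notch pathway, to which the ligand gene Dll1 belongs, lay close to all features, with a median of 0.04 over 31 members. In every mouse 4 (12.9%) were above and 1 (3.23%) below 0, against 9.97% and 7.5% of all features. Dll1 lay at 0.67, -0.85, 0.41 and 0.77 (mean 0.25 ± 0.75 SD, n = 4), with rows at 0.46 and 0.04. The target Hes1 averaged 0.04 and the receptor Notch1 -0.06. Respiratory chain genes had a median of -0.02 over 62 members and chaperones -0.01 over 32. Hspd1, the mitochondrial chaperonin, lay at -0.33, -0.57, -0.44 and -0.23, below 0 on all 8 arrays. Of 58 ribosomal protein genes 46 had a mean above 0, against 53.4% of all features. Their median was 0.09 (0.04 without mouse 1), but mouse 2 had a median of -0.02 and the Cy3 arrays one of -0.08. Interferon response, clock and immediate early genes had medians of 0.07, 0.03 and 0.09.

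The orientations agreed in sign for the low lists and differed for many of the slightly high ones. DNA replication had a median of -0.23 with the clone in Cy5 and -0.35 with it in Cy3, mitosis -0.16 in both, and the red cell list -0.22 and -0.34. MHC class II genes had 0.30 and 0.15, macrophage genes 0.21 and 0.13, and B cell genes 0.29 and 0.07. T cell genes had 0.22 and -0.06, stromal genes 0.19 and -0.07, and MHC class I genes 0.29 and -0.03. Over all features the medians were 0.06 and -0.03. The dye difference itself, taken in each mouse as the Cy5 array minus the Cy3 array divided by 2, passed the adjusted threshold for 280 of 16468 features (1.7%; limma, smallest adjusted p 0.0386), 14 above and 266 below 0, and for 0 when any mouse was left out. Without adjustment 27.7% of features had a p under 0.05 in this fit. Were the Cy3 arrays still to be turned, these 280 would be the clone effect. On that reading the medians would be 0.11 for DNA replication, 0.10 for red cell, 0.05 for mitosis, 0.10 for MHC class II and 0.09 for B cell genes. Single genes could also rest on 1 orientation: Atp13a2, a lysosomal transporter gene, averaged -0.71 from -1.49 in Cy5 and 0.08 in Cy3, and Gria2, a glutamate receptor subunit gene, averaged 0.65 from 1.21 and 0.10.

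**Figure D4:**
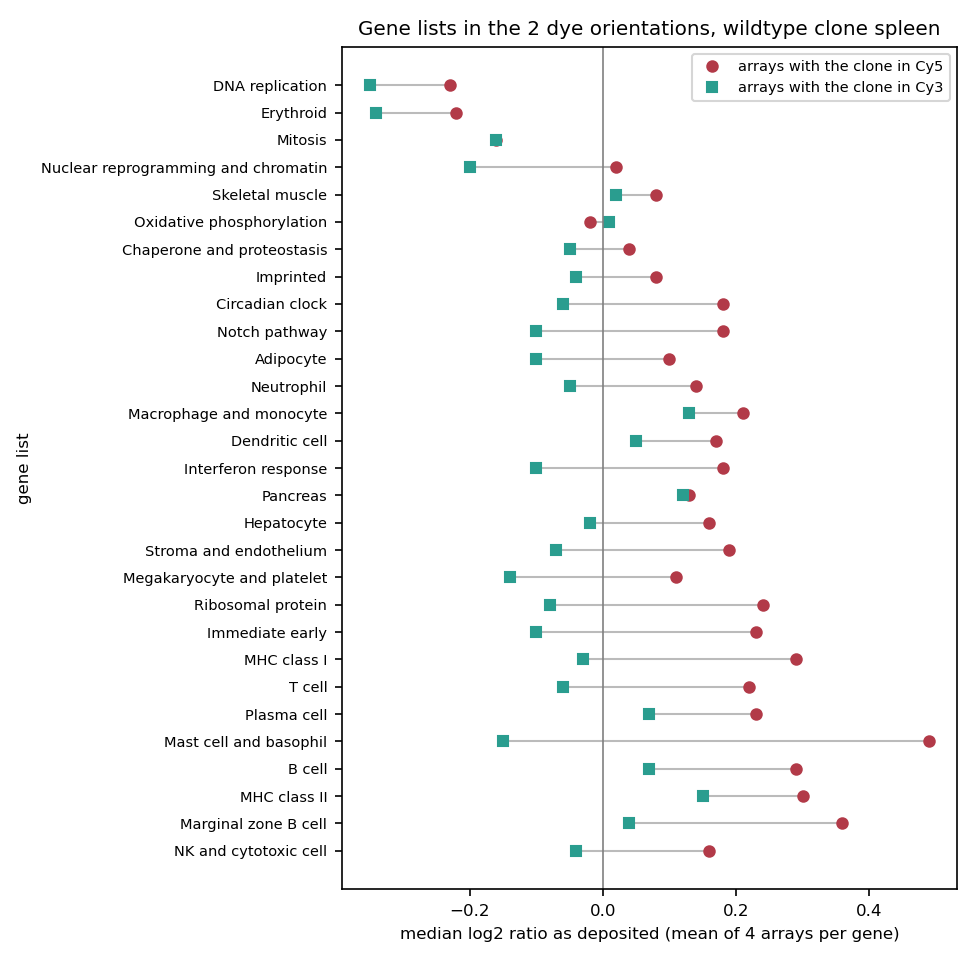
Median log2 ratio as deposited of each gene list over the 4 arrays with the clone in Cy5 (red circles) and the 4 with it in Cy3 (green squares). Both symbols lie below 0 for DNA replication, mitosis and red cell genes and above 0 for MHC class II, macrophage and B cell genes, while 1 lies on each side of 0 for T cell, stromal and ribosomal protein genes.

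Against the spleens of Dll1 clones, measured against a pool of Dll1 heterozygotes, the difference passed the adjusted threshold for 0 of 15608 features (0%; limma, smallest adjusted p 0.868; 721 features, or 4.62%, had an unadjusted p under 0.05). The DNA replication median was -0.15 in the Dll1 clones (-0.14, -0.19, -0.08 and -0.01 by mouse) beside -0.33 in the wildtype clones. Cdc6 lay at -0.05 ± 0.13 (SD, n = 4) there and at -0.66 ± 0.26 here, a difference of -0.61 with an adjusted p of 0.868 (limma). Top2a was as low there (-0.61) as here (-0.52). The red cell medians were -0.35 and -0.31, but the Dll1 clones spread from -0.82 to -0.02 and the wildtype clones from -0.45 to -0.27. H2-Eb1 averaged 1.34 in the Dll1 clones and 0.45 in the wildtype clones, a difference of -0.89 (limma adjusted p = 0.868). The median spread between mice was 0.417 in the Dll1 spleens, which limits what this difference can show.

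In livers of the same 4 wildtype clones, compared with liver of the conventional pool, the same lists lay near 0. Ratios as a whole were also narrower in liver, with an interquartile range per array of 0.26 to 0.52, against 0.53 to 0.82 in spleen. Whether the genes of these lists were expressed in liver was not tested. The DNA replication median was 0.01 there, mitosis 0.01, red cell genes 0.00 and MHC class II genes -0.02. Spleen minus liver passed the adjusted threshold for 19 of 16449 features (0.116%; limma, adjusted p 0.0479 to 0.0499), 10 higher and 9 lower in spleen, and 10.3% of features had an unadjusted p under 0.05. The 12 with a name were Lyz2, Cd28, Cd74, Ms4a1 and B2m on the higher side and Rrm2, Dek, Uck1, Atp13a2, Ctse, Tub and Fcsk on the lower side. Rrm2 lay at -0.70 in spleen and 0.06 ± 0.03 (SD, n = 4) in liver, a difference of -0.77 ± 0.10 (SE), and B2m at 0.45 and -0.38, a difference of 0.83 ± 0.10 (SE). None of the 19 passed with the mouse as a block (0 features; smallest adjusted p 0.506; 1292 of 16442 features, or 7.86%, with an unadjusted p under 0.05), and 0 features passed when any mouse was left out or when arrays were scaled to one spread. The median spread between mice was 0.0868 in liver and 0.264 in spleen, so the pooled spread of this fit is smaller than that of the spleens alone.

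**Figure D5:**
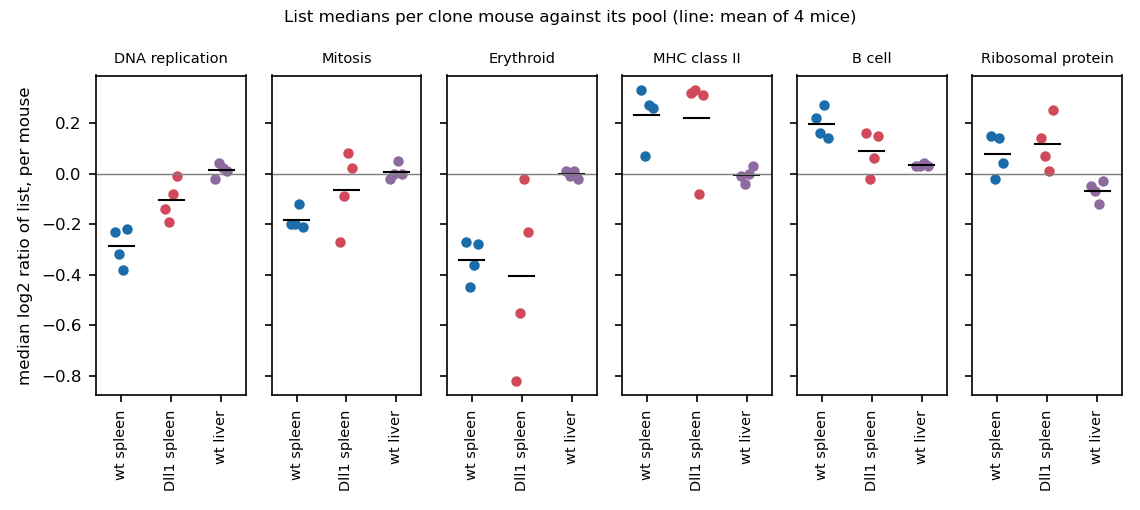
Median log2 ratio of 6 gene lists in each cloned mouse (points; 4 mice per group) for wildtype spleen, Dll1 spleen and wildtype liver, each against its own pool; lines are means over mice. Wildtype spleens lie below 0 for DNA replication, mitosis and red cell genes, Dll1 spleens scatter more, and livers lie near 0.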

How the data were processed

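Spleen RNA of each clone was labelled with Cy3 or Cy5 and hybridised with a pool labelled with the other dye, per the labels' protocols. The authors deposited 1 log2 ratio per row and array. The scanner, background correction and normalization behind these values are not given in the sources used, and signal over background was not analysed; the number of arrays limits the precision. Constants over 9 in size (267 positive with the clone in Cy5, 165 negative with it in Cy3) were set to missing, after which an array lacked 248 to 1033 of 20794 values.

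Rows were named through the platform's annotation, in which 12771 probes have 1 symbol and 0 have several, updated through the gene number. A row needed both arrays of a mouse, a gene was the mean of its best measured rows, and a feature needed 3 mice: 16468 features, of which 8724 were named genes and 7744 unnamed rows. Of 2227 genes with more than 1 row, 1048 (47.1%) had all rows on one side of 0. For most of them the rows disagreed in sign, which limits the names and the gene means. The mean of 4 mice was tested against 0, and groups against each other, with limma 3.58.1 in R 4.3.3 (lmFit, eBayes, Benjamini-Hochberg over all features, threshold 0.05); the fits were tested on simulated data. With 4 mice an exact sign-flip test of 1 value cannot go below 0.125 (2-sided), so none was used. The labels give 4 mouse identities, so p-values measure the spread between these clones, against 1 pool that has no spread of its own. Spleen and liver came from the same mice; their deviations from the group means correlated at 0.106, 0.00764, 0.00992 and 0.0587 by mouse across features.

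The 29 gene lists and the rules were chosen with earlier results of these data known. Named genes are the 15 above and the 15 below 0 with the smallest p among those of one sign in every mouse, the 4 with the smallest p in each list, and Dll1; members named besides these were chosen after their values were seen. Alternatives were centring, scaling, keeping the constants, turning the Cy3 arrays, each orientation alone, 1 array per mouse, all 4 mice, rows as features, the Dll1 spleens in the fit, robust eBayes, single arrays with a random block and a dye term, unshifted names, leaving out each mouse and, added after seeing the data, leaving out the rows that follow Hba-a1. Promoters are from RefSeq (GRCm38.p6), the first entry of each gene.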

Additional observations from a re-analysis of the deposited data

Results flagged for a closer look

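In 4 of 115 named genes measured in all 4 mice, 1 clone stood apart from the other 3 by Dixon's criterion, which chance alone meets in about 1 of 20 groups. Ctse lay at -0.88 in mouse 2, against -0.62 to -0.57 in the others. Mcpt8, a basophil protease gene, lay at 1.35 in mouse 1, against -0.17 to 0.03. Hpx lay at -0.06 in mouse 4 and Cox7b at -0.02 in mouse 1, each closer to 0 than the other 3 clones.

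In 12 named genes the ratio to the pool differed between spleen and liver of the same clones (limma, adjusted p 0.0479 to 0.0499). Spleen minus liver was 0.77 for Lyz2, 0.62 for Ms4a1, 0.74 for Cd28, 0.65 for Cd74 and 0.83 for B2m. It was -0.70 for Uck1, -0.86 for Dek, -0.74 for Atp13a2, -0.77 for Rrm2, -0.72 for Ctse, -0.62 for Tub and -0.97 for Fcsk. None passed with the mouse as a block or with any mouse left out.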

How the results depend on the processing

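For the clones against the pool, the count of features past the threshold was 0 under every alternative except a fit of the single arrays in which each mouse was a random block and the dye a term (17) and the Cy3 arrays turned in sign (280). For wildtype minus Dll1 spleen it was 0 under every alternative run; no paired analysis was possible because the mice of the 2 genotypes are different animals. For spleen minus liver the 19 calls became 0 with the mouse as a block (the pairing is by animal), 0 with arrays scaled to one spread, 0 to 0 over the fits without 1 mouse and 3876 with the Cy3 arrays turned, and 16 features passed after centring. The 280 dye differences became 415 after centring and 0 to 0 without 1 mouse. The causes were not tested. Of 29 list medians, 0 changed sign with centring or scaling, 8 with the Cy3 arrays turned, 8 with unshifted names, 4 on the Cy5 arrays alone and 16 on the Cy3 arrays alone. Of 128 named genes, 0 changed sign with scaling, 49 with the Cy3 arrays turned, 13 on the Cy5 arrays alone and 27 on the Cy3 arrays alone, and 59 of 123 with unshifted names. With scaling the DNA replication median was -0.25 and with unshifted names -0.03.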

Other observations

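Other genes with clones close together lay outside the lists. Tmsb4x, which encodes the actin-binding peptide thymosin beta 4, lay at 0.66, 0.55, 0.56 and 0.50 and above 0 on all 8 arrays. Btg1, an antiproliferative gene of resting lymphocytes, lay at 0.53, 0.40, 0.63 and 0.52, and the surface antigen gene Ly6e at 0.74, 0.45, 0.43 and 0.66, also above 0 on all 8. Gpx1, a glutathione peroxidase gene, lay at -0.53, -0.78, -0.70 and -0.52, and Tub at -0.54, -0.49, -0.60 and -0.56, both below 0 on all 8. Ctse, which encodes cathepsin E, lay below 0 on all 8 as well. Ddit4l, related to a regulator of mTOR signalling, lay at -0.88, -0.84, -1.19 and -0.64 in these clones and averaged 0.03 ± 0.89 (SD, n = 3) in the 3 Dll1 clones measured. None of these passed the adjusted threshold (limma).

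Among the small lists, the mast cell and basophil genes had a median of 0.14 over 5 members, with 0.49 on the Cy5 arrays and -0.15 on the Cy3 arrays. Megakaryocyte and platelet genes had a median of 0.08 over 12; Rap1b, a platelet GTPase gene, lay at 0.52, 0.33, 0.54 and 0.33, above 0 on all 8 arrays, while Pf4, platelet factor 4, averaged -0.16 in 3 mice.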
